A study of Danio rerio with 4 samples.

Results

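Galectins are lectins that bind sugars ending in beta-galactose through a conserved carbohydrate recognition domain. They leave the cell without a signal peptide and cross-link glycoproteins on cell surfaces and in the matrix, and galectins are also among the lectins of fish skin mucus. The family holds prototype members with a single domain (galectin-1 and galectin-2 types), a chimera with a long repeat-rich tail (galectin-3 type) and tandem-repeat members with a pair of domains (galectin-4, galectin-8 and galectin-9 types).

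The galectin family was taken from the table of read counts as every gene whose symbol begins with lgals, in any case, which gave 18 of 32105 genes. Of these, 13 carry galectin names, 2 are galectin-related proteins (LGALSL) and 3 are galectin-3-binding proteins (lgals3bp.1, lgals3bp.2 and lgals3bp.3), which are ligands of galectins and not galectins themselves. The family was chosen by the levels of lgals4 in these same libraries, so the values of lgals4 are given as a description and carry no test. The 10 genes with the highest mean level are described singly: LGALS8 (ENSDARG00000037066) was just inside with a mean of 6.72 CPM (counts per 1000000 reads), and lgals3bp.2 just outside with 1.71 CPM. The same 10 led when the 3 ages had equal weight and when levels were set per kilobase of exon length.

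RNA came from the skin of male zebrafish in 4 libraries. One was from fish of 5 months in the strain AB JxTu, 2 (replicates 1 and 2) were from 24 months in AB JxTu Tg(wt1b:GFP), a line in which wt1b sequence drives green fluorescent protein, and one was from 30 months in AB JxTu. Only the 24-month fish carried the reporter, so effects of strain and of that age cannot be told apart. It is not stated in the labels if 1 fish or a pool went into each library, or if the 24-month pair came from separate fish, so p-values measure only the spread between these samples, which may be technical.

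The 5-month library held 18211821 counts, replicates 1 and 2 of 24 months held 20070292 and 11833498, and the 30-month library held 20441260. Levels are CPM after TMM scaling, a correction for library composition, and 3 counts correspond to between 0.13 and 0.31 CPM; counting intervals cover counting error only. Of 12 keratinocyte markers, between 11 and 12 were detected in each library, with summed levels of 25525 to 60977 CPM. Marker genes of other organs were also detected, at unequal levels, and the source of their RNA was not tested. Germ cell and testis markers summed to 508.1 CPM at 5 months, 519.5 and 2.59 CPM at 24 months and 3.68 CPM at 30 months, and kidney tubule markers to 314.7, 9.99, 1.97 and 2.57 CPM in the same libraries. Fibroblast markers, mostly collagen, summed to 42390, 4787, 63257 and 7800 CPM. The strong difference within the 24-month pair lay in the collagen genes. Of the other fibroblast markers, DCN had 321.6 and 307.0 CPM in replicates 1 and 2, and PDGFRA 23.5 and 27.2 CPM. LUM had 171.8 and 288.9 CPM there, and the scarce FBN2 5.78 and 1.24 CPM.

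The tandem-repeat galectin lgals4 (ENSDARG00000104016), whose mammalian counterpart is made mainly by the epithelium of the gut, had the most reads of the family at 5 and 24 months and almost none at 30 months. Its counts were 11390 at 5 months, 17025 and 7142 in replicates 1 and 2 of 24 months, and 55 at 30 months. In CPM this was 546.8, 739.8, 738.7 and 2.89. The 30-month library stood alone, while the 24-month pair gave nearly the same level after TMM scaling. That near equality depends on the scaling (factors 1.15 and 0.817 for replicates 1 and 2). As a share of library totals, replicate 1 stood above replicate 2. By rank among all genes lgals4 was number 170, 146 and 222 in the first 3 libraries, and number 14281 at 30 months. In bulk tissue, fewer cells of a type and less RNA per cell cannot be told apart.

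The level at 30 months was 189.3-fold lower than at 5 months (95% counting interval 145.4 to 251.5). It was 256.2-fold lower than in replicate 1 (196.7 to 340.2) and 255.8-fold lower than in replicate 2 (196.3 to 339.9) of 24 months. On the log2 scale with a prior count of 2 these differences were −7.51, −7.95 and −7.95, whereas the 24-month replicates differed by 0.0 from each other. Each age other than 24 months has 1 library, so the difference has no replicate check at 30 months. Among 13182 genes whose mean level reached 5 CPM, 11 (0.0834%) were at least 16-fold lower at 30 months than in the lowest other library, and lgals4 is one of them. That contrast chose the gene, so nothing is read from the share.

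**Figure D1:**
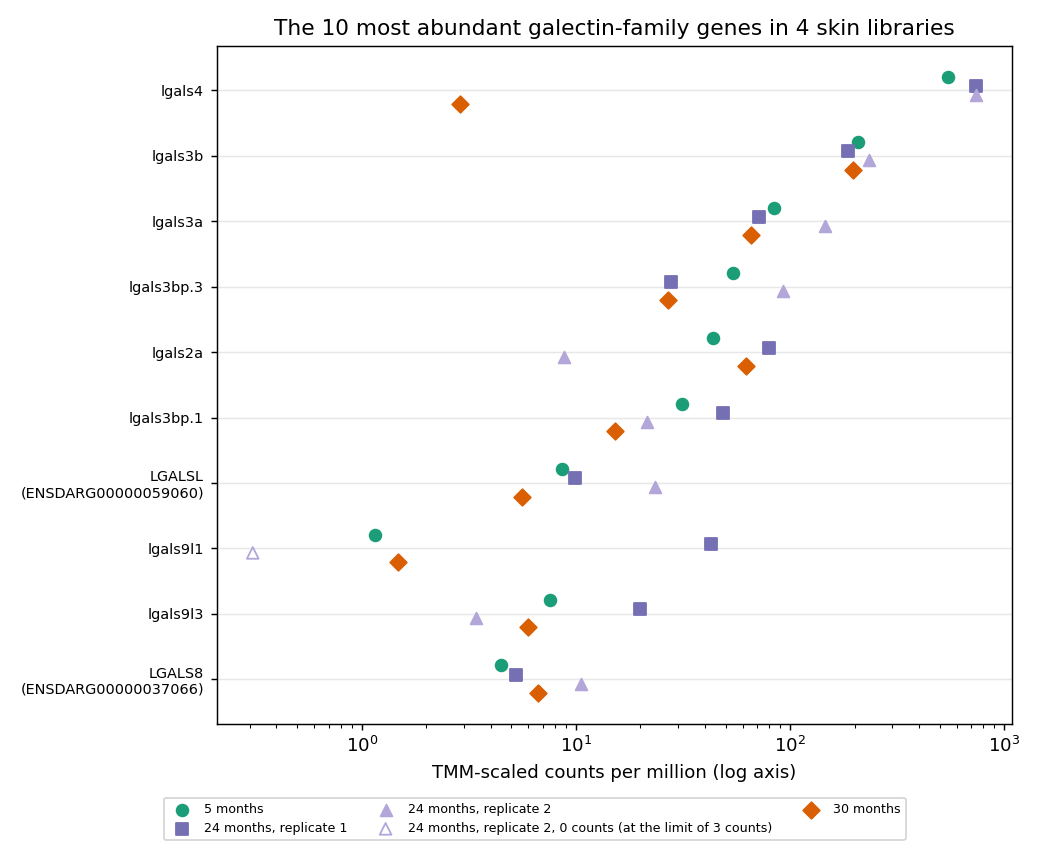
Levels of the 10 most abundant galectin-family genes in each library, as TMM-scaled CPM on a log axis; each point is 1 library, and the open triangle stands for 0 counts, drawn at the level of 3 counts. For lgals4 the 30-month point lies at 2.89 CPM and the other points between 546.8 and 739.8 CPM, while the 4 points of lgals3b lie between 186.1 and 234.6 CPM.

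Markers of tissues that differed between the libraries are given beside lgals4, and their part in its level was not tested. The gene stood at 738.7 CPM in replicate 2 of 24 months and 739.8 CPM in replicate 1. Germ cell and testis markers summed to 2.59 CPM in replicate 2 and 519.5 CPM in replicate 1. Keratinocyte markers summed to 35865 CPM at 30 months, 25525 CPM at 5 months, and 34835 and 60977 CPM in replicates 1 and 2 of 24 months. Most of each sum was a single keratin gene, krt5, at 28647 CPM at 30 months and 21077 CPM at 5 months. Of the other members, krt1-19e (6.62 against 17.8 CPM) and cyt1 (0.263 against 1.34 CPM) were lower at 30 than at 5 months, and the rest were higher. Set against the 24-month pair, krt4, krt1-19e, TP63, dsc2l and PPL were lower at 30 months than in both replicates. In the same comparison krt17, cdh1 and epcam were higher than in both, and the other markers lay between the replicates. Matched markers of intestinal epithelium, the site of mammalian galectin-4, were sparse in all libraries: of 12, 10 were detected at 5 months, 11 and 4 in replicates 1 and 2 of 24 months, and 9 at 30 months. The listed markers cdx1a, cdx1b and fabp1b.1 found no match by name, so their levels are not known here. A gene of similar name outside the list, fabp1b.2, had 26.4 CPM at 5 months, 162.3 and 166.5 CPM at 24 months and 0.21 CPM at 30 months. It comes from the search below for profiles like that of lgals4, and its link to intestinal epithelium was not tested. The 12 matched markers are gene entries, and ANPEP and SLC15A1 each have more than one. Their summed level was 48.0 CPM in the 5-month library, 26.1 and 26.7 CPM in those replicates and 43.7 CPM in the 30-month one. Most of that sum came from VIL1 (villin, of the brush border), with 12.8, 8.34, 12.1 and 21.8 CPM in the same order of libraries, and the peptidase gene ANPEP (ENSDARG00000036809), with 21.7, 8.52, 14.1 and 15.1 CPM. At the other end, apoa4a (an apolipoprotein) had 0 counts in every library and FABP6 (a bile acid binding protein) had 1 count in all. Mucous cell markers summed to 837.9 CPM at 30 months, within the range of 251.7 to 968.6 CPM of the other libraries. Most of the 30-month sum was muc5.2, at 646.4 CPM, and single members differed. At 30 months muc5.1, muc5.2 and ITLN1 (ENSDARG00000095082) were at their highest. AGR2 was at its lowest there (45.5 CPM, against 212.0 CPM at 5 months and 57.8 and 77.1 CPM at 24 months). The gene itln1 (ENSDARG00000007534) had 5.9, 5.56, 0.103 and 0.158 CPM in order of libraries.

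Genes next to lgals4 on the chromosome were read by their order in a RefSeq annotation of a later assembly (GRCz12tu), since positions in the files' build were not used here. Among protein-coding genes up to 12 positions away on either side, 16 were matched to the table and 13 had a mean of at least 5 CPM. Their log2 differences between 30 and 5 months lay between −1.23 (ubl7b, a ubiquitin-like gene) and 0.53 (zgc:158464), far from the −7.51 of lgals4. The gene after it in that order, p2ry1, a receptor for extracellular ADP, stood at 19.0 CPM at 30 months and 14.2 CPM at 5 months. Further along, 4 positions away, the actin-binding gene cttn stood at 50.1 CPM at 30 months and 49.6 CPM at 5 months. On the other side chrna3 and chrnb4, subunits of acetylcholine receptors, had 0 counts each at 30 months and 2 and 11 counts at 5 months, too few to compare.

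**Figure D2:**
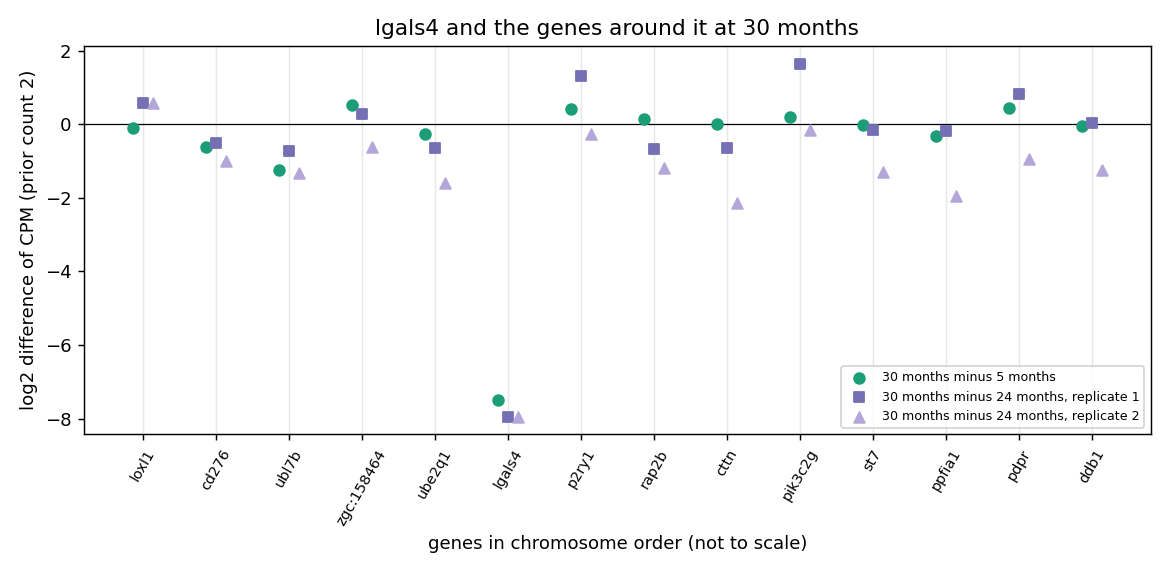
Log2 differences of CPM (prior count 2) at 30 months from each of the other libraries for lgals4 and the 13 matched genes around it whose mean reached 5 CPM, in chromosome order and not to scale; each point is a difference between 2 libraries. The points of lgals4 lie between −7.51 and −7.95, and those of its neighbours between −2.15 (cttn against replicate 2 of 24 months) and 1.65 (pik3c2g against replicate 1).

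The chimera type has a pair of genes in zebrafish, lgals3b and lgals3a. Mammalian galectin-3 is made by keratinocytes and macrophages and takes part in adhesion and migration. The member lgals3b (ENSDARG00000044001) had 206.6 CPM at 5 months, 186.1 and 234.6 CPM at 24 months and 197.6 CPM at 30 months. These levels were nearly flat, with the highest only 1.26 times the lowest. The log2 range over the libraries was 0.33, and 2.13% of the 13182 genes had a smaller one. In edgeR's quasi-likelihood test the log2 change was 0.03 (SE 0.91, adjusted p = 1) for 24 against 5 months and −0.09 (SE 0.92, adjusted p = 1) for 30 against 24 months. With library totals alone the first of these was −0.22, and without replicate 2 of 24 months the second was 0.09. The standard errors draw on 1 estimate of the spread that rests on the 24-month pair and is shared over genes.

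The second gene, lgals3a (ENSDARG00000077850), had 84.6 CPM at 5 months, 72.0 and 145.2 CPM at 24 months and 65.4 CPM at 30 months. Replicate 2 of 24 months alone stood above the rest, with the 30-month library the lowest. The log2 change was 0.36 (SE 0.87, edgeR adjusted p = 1) for 24 against 5 months, and −0.73 (SE 0.88, adjusted p = 1) for 30 against 24 months. Without replicate 2, 24 against 5 months was −0.23.

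Prototype galectins were represented by lgals2a (ENSDARG00000054942). Mammalian galectin-2 is known chiefly from the epithelium of the digestive tract. The zebrafish gene had 911 counts at 5 months, 1839 and 85 counts at 24 months and 1189 counts at 30 months, or 43.7, 79.9, 8.79 and 62.4 CPM. Here the low library was replicate 2 of 24 months, not the oldest one. Replicate 1 had 9.09 times the level of replicate 2 (95% counting interval 7.31 to 11.4), the library of 5 months 4.97 times (3.98 to 6.29) and that of 30 months 7.1 times (5.69 to 8.96). The log2 changes between ages were 0.02 (SE 0.88, edgeR adjusted p = 1) for 24 against 5 months and 0.49 (SE 0.86, adjusted p = 1) for 30 against 24 months. The first was −2.3 without replicate 1 and 0.87 without replicate 2. Its neighbour in gene order, lgals1l1, a galectin-1-like gene, had 6, 115, 1 and 3 counts in the same order of libraries, again highest in replicate 1. The other galectin-2 gene, lgals2b, had 9, 7, 0 and 1 counts.

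The galectin-9-like genes lie close together in the gene order of GRCz12tu, and reads of such close copies may be split between them, so single values are uncertain. Mammalian galectin-9 is known from immune cells and acts on T cells. For lgals9l1 (ENSDARG00000025903) there were 24 counts in the 5-month library, 980 and 0 in the 24-month pair and 28 in the 30-month library, or 1.15, 42.6, 0.0 and 1.47 CPM. A single library, replicate 1 of 24 months, held nearly all its reads. Its level there was 37.0-fold higher than at 5 months (95% counting interval 24.7 to 58.0), 29.0-fold higher than at 30 months (19.9 to 43.8), and at least 137.2-fold higher than in replicate 2, taking 3 counts in that library. Of the 13182 genes, 17 (0.129%) were at least 16-fold higher in that library than in any other. The mean of 5 CPM that defines those genes was reached by lgals9l1 only through replicate 1, so nothing is read from the share.

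The log2 change of lgals9l1 was 4.2 (SE 1.57, unadjusted p = 0.00725, edgeR adjusted p = 1) for 24 against 5 months. For 30 against 24 months it was −3.85 (SE 1.53, unadjusted p = 0.0119, edgeR adjusted p = 0.508). Both rested on replicate 1: without it they were −3.52 and 3.84. Their p-values use the spread shared over genes and not the gap between the replicates in lgals9l1 itself. Macrophage markers were not all highest in the same library. The marker grna.1, a granulin, had 2.78 CPM at 5 months, 255.4 CPM in replicate 1 of 24 months, 4.03 CPM in replicate 2 and 5.88 CPM at 30 months. Over the whole list, with 18 to 19 of 20 genes detected in each library, the sum was 1039 CPM at 5 months, 3566 CPM in replicate 1, 5595 CPM in replicate 2 and 2402 CPM at 30 months. Most of each sum came from cd74a, at 632.8, 1820, 3821 and 1389 CPM in the same order, and cd74b, at 212.2, 943.2, 1431 and 659.2 CPM. Among the other members, csf1ra, csf1rb, MFAP4 (ENSDARG00000038683) and MFAP4 (ENSDARG00000038681) were higher in replicate 2 than in replicate 1. The rest with any counts were higher in replicate 1. The part of macrophage markers in the result was not tested.

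Its relative lgals9l3 (ENSDARG00000041060) was also highest in replicate 1 and lowest in replicate 2 of 24 months, in a narrower range, with 7.54 CPM at 5 months, 19.9 and 3.41 CPM at 24 months and 5.99 CPM at 30 months. Replicate 1 of 24 months had 5.82 times the level of replicate 2 (95% counting interval 4.08 to 8.55) and 2.63 times that at 5 months (2.19 to 3.18). The edgeR log2 change was 0.63 (SE 1.35, adjusted p = 1) for 24 against 5 months and −0.96 (SE 1.37, adjusted p = 1) for 30 against 24 months. The remaining galectin-9-like genes were near the limit of detection: lgals9l5 had 11, 9, 1 and 2 counts, lgals9l6 had 10, 6, 0 and 0, and lgals9l4 had 0 in every library.

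Galectin-8 in human cells marks damaged vesicles for autophagy. Its zebrafish gene LGALS8 (ENSDARG00000037066) had 4.46 CPM at 5 months, 5.26 and 10.6 CPM at 24 months and 6.62 CPM at 30 months. Values of 5 and 30 months lay close to those of replicate 1, with replicate 2 above them. A second gene of that name (ENSDARG00000037613) had between 1 and 4 counts per library. The galectin-related protein LGALSL (ENSDARG00000059060), whose human counterpart lacks the binding of galactose sugars, had 8.59 CPM at 5 months, 9.91 and 23.3 CPM at 24 months and 5.62 CPM at 30 months. Its edgeR log2 change was 0.95 (SE 1.27, adjusted p = 1) for 24 against 5 months and −1.56 (SE 1.32, adjusted p = 1) for 30 against 24 months. Its paralogue of the same name (ENSDARG00000055525) had 11, 6, 1 and 3 counts.

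Galectin-3-binding proteins are secreted glycoproteins that carry sugars bound by galectin-3, and in humans their level in serum is raised in viral infection. The gene lgals3bp.3 (ENSDARG00000037805) had 53.9 CPM at 5 months, 27.7 and 92.3 CPM at 24 months and 26.8 CPM at 30 months. Its 30-month value lay just under the lower of the 24-month pair, and the 5-month value lay between that pair. The gene lgals3bp.1 (ENSDARG00000040528) had 31.3 CPM at 5 months, 48.4 and 21.4 CPM at 24 months and 15.3 CPM at 30 months, and here the 30-month library was the lowest. Between 30 and 5 months the log2 differences were −1.01 for lgals3bp.3 and −1.03 for lgals3bp.1. For 30 against 24 months edgeR gave −1.16 (SE 0.92, adjusted p = 1) and −1.19 (SE 1.02, adjusted p = 1) for these genes. The scarce lgals3bp.2 had 8, 75, 3 and 55 counts, higher in replicate 1 of 24 months and at 30 months than in the other libraries. Its level at 30 months was 7.52-fold that at 5 months (95% counting interval 3.56 to 18.3).

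Levels of different genes can be set beside each other only per length, and the long exon length behind lgals4 (8883 bp, against 1690 bp for lgals3b) changes the order. The length of the transcripts present in these libraries is not known, so the order rests on these exon lengths. A shorter lgals4 transcript would raise its level per kilobase. In CPM per kilobase, lgals3b led with a mean of 122.0 over the libraries (range 110.1 to 138.8). Next came lgals4 with 57.1 (0.325 to 83.3), lgals3a with 38.8 (27.6 to 61.4) and lgals2a with 36.4 (6.57 to 59.7). With these exon lengths the lead of lgals3b held in every library, since its lowest value exceeded the highest of the others. Within libraries, lgals4 stood above lgals3a and lgals2a at 5 months (61.6, against 35.8 and 32.7). It did so also in replicate 1 (83.3, against 30.4 and 59.7) and replicate 2 (83.2, against 61.4 and 6.57) of 24 months. At 30 months it lay below both (0.325, against 27.6 and 46.6). The order of lgals3a and lgals2a changed from library to library. Then followed lgals3bp.3 with 18.8 (at most 34.6) and lgals3bp.1 with 14.6 (7.66 to 24.3), whose ranges also overlapped. The least abundant of the 10, lgals9l1, LGALS8, LGALSL and lgals9l3, had means of 5.07, 4.42, 3.92 and 3.25 CPM per kilobase with overlapping ranges.

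Summed over the 18 genes, the level was 991.3 CPM at 5 months, 1241 and 1279 CPM at 24 months and 393.5 CPM at 30 months. Most of the gap at 30 months lay in lgals4. It made up 55.2% of the family's counts in the 5-month library, 59.6% and 57.8% in those of 24 months and 0.734% in that of 30 months. Per kilobase of the exon lengths above its share was 20.5%, 23.1%, 23.6% and 0.148% in the same order. The 12 galectins other than lgals4 summed to 349.8 CPM at 5 months, 411.9 and 403.0 CPM at 24 months and 339.9 CPM at 30 months. Per kilobase the same 12 gave 198.7 at 30 months and 198.6 at 5 months. The share of lgals3b per kilobase was 40.7% in the 5-month library, 30.6% and 39.4% in the 24-month pair and 53.0% in the 30-month library.

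**Figure D3:**
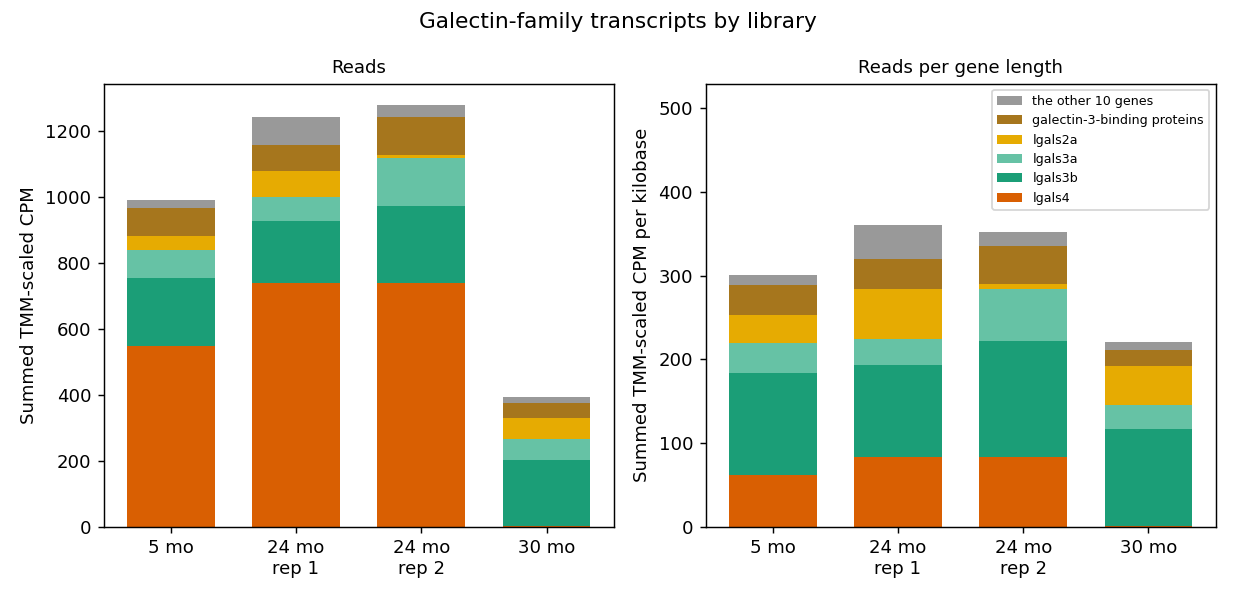
Stacked levels of the 18 galectin-family genes in each library, as summed TMM-scaled CPM (left) and as summed CPM per kilobase of exon length (right). The lgals4 segment is visible at 5 and 24 months and nearly absent at 30 months, where the whole bar reaches 393.5 CPM, against 991.3 CPM in the 5-month library.

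Tests of the members other than lgals4 gave no calls. Of the 18 genes, 15 passed the filter on low counts, and 14 of these are other than lgals4. With edgeR, 0 of the 14 had an adjusted p under 0.05 for 24 against 5 months, where 0.125% of the 21535 genes tested did. For 30 against 24 months the count was 0, where 0.683% of genes were called, and for the slope over age it was 0, where 0% were. At an unadjusted p under 0.05 edgeR gave 1 gene (lgals9l1) for 24 against 5 months, with 2.03% of all genes, 1 (lgals9l1) for 30 against 24 months, with 4.76%, and 0 for the slope, with 1.56%. DESeq2 and limma-voom gave 0 in each comparison, both at an adjusted and at an unadjusted p under 0.05.

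Among the 14, 11 had a positive log2 change for 24 against 5 months (median 0.26, against −0.06 over all tested genes) and 2 for 30 against 24 months (median −1.06, against −0.14). These comparisons share the 24-month libraries. Of the 14, lgals9l5, lgals9l6 and LGALSL (ENSDARG00000055525) had at most 11 counts in any library. Most reads of lgals9l1 and lgals1l1 lay in replicate 1 of 24 months. The share of positive changes over all tested genes is not given here, and nothing is read from these counts and medians. The slope per 10 months was positive for 7 of 14, with a median of 0.03 beside 0.02 over all genes. Between the single libraries of 30 and 5 months, 27% of the 13182 genes differed at least 2-fold, 12.2% being higher and 14.8% lower at 30 months. Of the 9 galectin-family genes above 5 CPM other than lgals4, 2 (lgals3bp.3 and lgals3bp.1) were at least 2-fold lower at 30 months and 0 were at least 2-fold higher. Both only just passed (log2 differences −1.01 and −1.03), so nothing is read from the count. With library totals alone they were −1.3 and −1.32, but with RLE scaling lgals3bp.3 was −0.99. In the second deposited table lgals3bp.3 was −1.34 and lgals3bp.1 was −0.61. The median log2 difference of the 9 was −0.33, beside 0.06 over all genes. With lgals4, whose levels in these libraries chose the family, 3 of 10 were lower.

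The 24-month pair differed at least 2-fold in 40.5% of genes and in 7 of the 10 galectin-family genes. Among the 7, lgals9l1 reached a mean of 5 CPM through replicate 1 alone, so its gap was fixed by selection. The gene lgals3a only just passed (log2 difference 1.01), and nothing is read from the count. Replicate 2 was lower for lgals2a, lgals3bp.1, lgals9l1 and lgals9l3, and higher for lgals3a, lgals3bp.3 and LGALSL. All libraries lay within 2-fold of each other for 29.1% of genes and for 1 of the 10, lgals3b. The median log2 range was 1.78 for the 9 genes other than lgals4, which include lgals9l1, beside 1.37 for all genes.

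**Figure D4:**
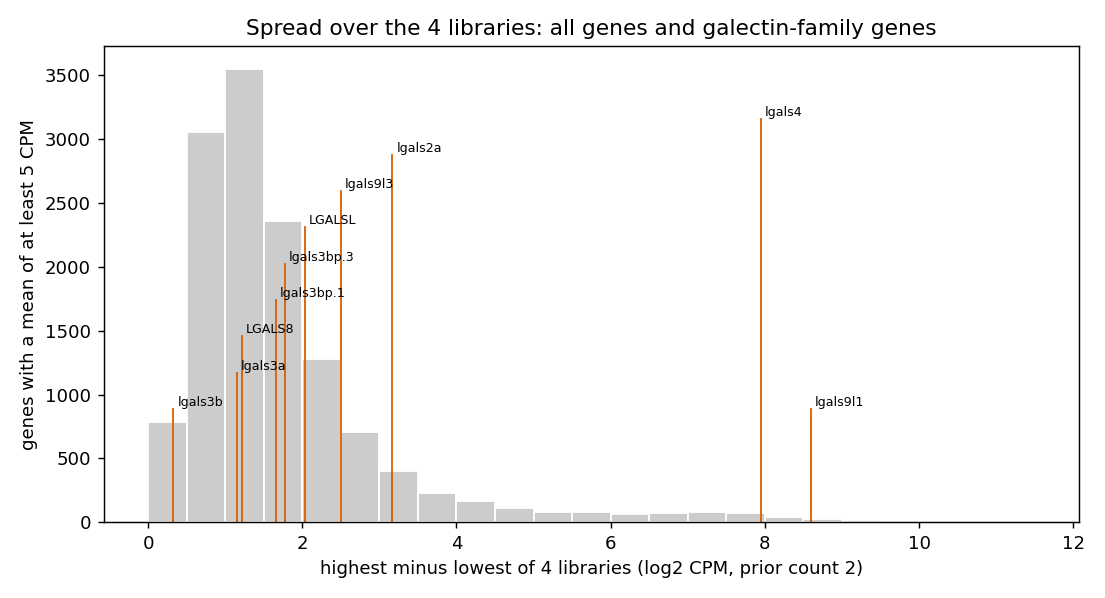
Log2 range over the 4 libraries (highest minus lowest log2 CPM, prior count 2) for the 13182 genes whose mean level reached 5 CPM (grey histogram, number of genes per bin), with vertical lines at the 10 galectin-family genes; line heights only separate the names. The lines run from 0.33 for lgals3b to 7.95 for lgals4 and 8.6 for lgals9l1. The range of lgals4 is what chose it, and lgals9l1 reached a mean of 5 CPM through 1 library alone, so the places of both were fixed by selection.

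Genes with profiles most like those of the leading galectins were found among 11747 named genes above 5 CPM by the root mean square distance of centred log2 CPM over the 4 libraries. Nearest to lgals4 was SLC1A1, a glutamate transporter, at a distance of 0.606, with 7.54 CPM at 5 months, 11.1 and 22.0 CPM at 24 months and 0 counts at 30 months. Then came fabp1b.2, a fatty acid binding protein (0.91), with 26.4, 162.3, 166.5 and 0.21 CPM, and serpina10a, a serine protease inhibitor of plasma (0.976), with 35.5, 49.8, 10.4 and 0.105 CPM. They share with lgals4 a 30-month value far below the others, but varied more among the other libraries. With 4 libraries, of which one decides the profile, such likeness is a description.

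For lgals3b the nearest genes were rgl3a (0.012), ikbkg (0.032) and INPP4A (ENSDARG00000063352; 0.038), which encode a guanine nucleotide exchange factor, a regulator of NF-kappaB and a lipid phosphatase. All are flat genes, such as rgl3a with 31.3 CPM at 5 months, 27.6 and 35.2 CPM at 24 months and 29.3 CPM at 30 months. For lgals3a they were actb1, a cytoplasmic actin (0.023), NDNF, a secreted factor (0.027), and senp6a, a SUMO protease (0.03). The actin gene had 2768 CPM at 5 months, 2285 and 4672 CPM at 24 months and 2053 CPM at 30 months.

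Nearest to lgals9l1, a gene added to this search after its values were seen, was ifi44a8, an interferon-induced gene, at a distance of 0.223. It had 0.864 CPM at 5 months, 38.6 and 0.0 CPM at 24 months and 0.945 CPM at 30 months. Next were mxc, another interferon-induced gene (0.905), with 9.74, 179.2, 2.48 and 11.1 CPM, and ighm, the heavy chain of immunoglobulin M (0.955), with 3.74, 299.4, 2.07 and 11.2 CPM. All peaked in replicate 1 of 24 months, which follows from the search, since that library decides the profile of lgals9l1.

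**Figure D5:**
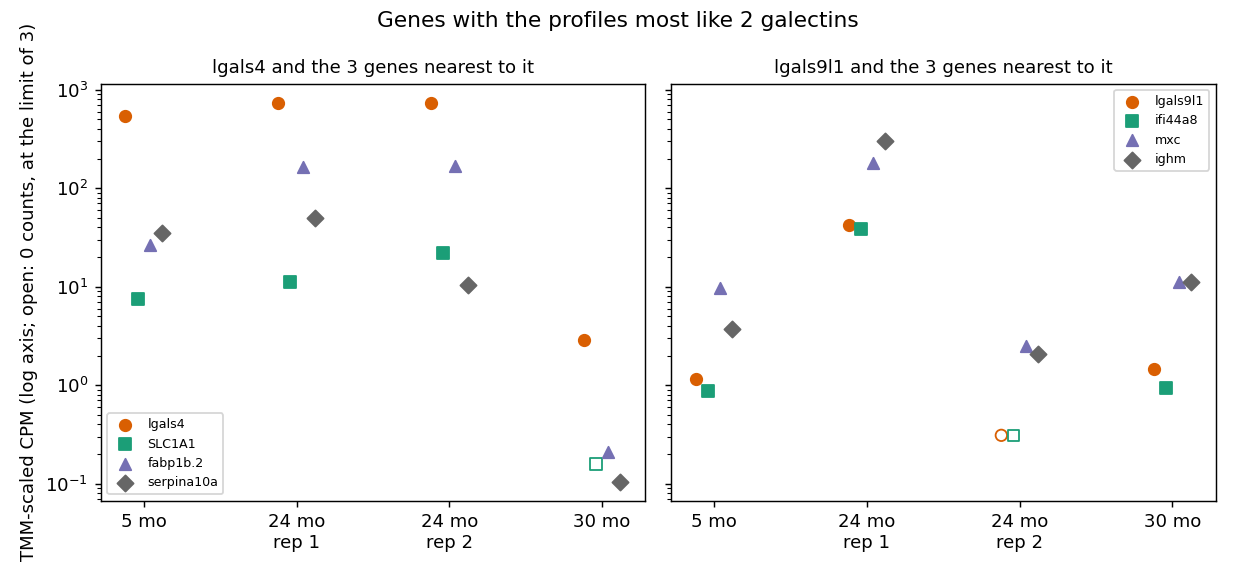
TMM-scaled CPM on a log axis in each library for lgals4 (left) and lgals9l1 (right), each with the 3 genes nearest in profile; open symbols are 0 counts, drawn at the level of 3 counts. On the left all genes are lowest at 30 months, and on the right all are highest in replicate 1 of 24 months, where lgals9l1 has 42.6 CPM. The nearest genes were chosen for this likeness.

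The sugars that galectins bind are built by glycosyltransferases. Of 46 such genes matched, 43 were tested, and edgeR called 0 in either comparison of ages or in the slope, also at an unadjusted p under 0.05 (2.03%, 4.76% and 1.56% of all genes). For 24 against 5 months 27 of 43 were higher (median log2 0.19, beside −0.06 over all tested genes). For 30 against 24 months 20 were (median −0.05, beside −0.14). Their summed level was 521.3 CPM at 5 months, 553.8 and 668.3 CPM at 24 months and 578.4 CPM at 30 months, with no low value in the oldest library. The most abundant member, b3gnt7l, of a family that extends the N-acetyllactosamine chains galectins favour, had 21.9, 49.2, 88.1 and 36.1 CPM. MGAT2, which adds branches to N-glycans, had 26.2 CPM at 5 months, 11.6 and 7.03 CPM at 24 months and 10.3 CPM at 30 months, and MGAT4B, another branching enzyme, had 7.87, 14.8, 29.1 and 23.0 CPM. B3GNT3 (ENSDARG00000043482) was scarce, with 6, 21, 46 and 2 counts.

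Glycoproteins known to bind galectins in mammals, a list of 39 genes that includes the 3 lgals3bp genes, were all tested and 0 were called by edgeR; at an unadjusted p under 0.05 there were 0 for 24 against 5 months (2.03% of all genes), 1 for 30 against 24 months (4.76%) and 0 for the slope (1.56%). For 24 against 5 months 23 of 39 were higher (median log2 0.16, beside −0.06 over all tested genes). For 30 against 24 months 12 were (median −0.31, beside −0.14). The most abundant, ITGB4, the beta chain of the hemidesmosome integrin, had 1192 CPM at 5 months, 2612 and 5901 CPM at 24 months and 1542 CPM at 30 months. ITGA5, a subunit of the fibronectin receptor, had 29.2, 88.1, 108.0 and 36.0 CPM. TGFBR2 (ENSDARG00000059363), a receptor of TGF-beta, had 16.7, 26.5, 79.1 and 42.5 CPM. The leukocyte phosphatase ptprc (CD45) had 37.2, 137.4, 51.5 and 61.1 CPM, highest in the library where lgals9l1 was highest.

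Other lectins, secreted or of the secretory pathway, numbered 20 matched and 15 tested genes. One of the 15 passed for 24 against 5 months, beside 0.125% of all genes, and 2 had an unadjusted p under 0.05, beside 2.03%. The gene that passed was itln4, an intelectin, a family of secreted lectins that bind microbial sugars. It had 7.44 CPM at 5 months, 62.0 and 313.9 CPM at 24 months and 76.3 CPM at 30 months, and was higher at 24 than at 5 months in both replicates (log2 change 4.66, edgeR adjusted p = 0.0339). In that comparison 8 of the 15 were higher (median log2 0.05, beside −0.06 over all tested genes). For 30 against 24 months 7 were (median −0.11, beside −0.14). In this second comparison edgeR called 0, and 1 had an unadjusted p under 0.05, beside 4.76% of all genes. Under some other settings 0 genes of the whole table were called for 24 against 5 months, itln4 included among those lost. These were library totals alone, a filter at a mean of 5 CPM and the other dispersion setting of edgeR. LMAN1, a cargo lectin of the early secretory pathway, had 51.9, 21.1, 13.6 and 15.3 CPM. The pentraxin apcs had 448 counts in replicate 1 of 24 months and between 0 and 1 elsewhere, and CLEC3B (ENSDARG00000076541), a tetranectin gene, had 3.02, 7.52, 15.1 and 5.67 CPM. Unlike lgals4, the lectins outside the galectin family were not low as a sum at 30 months, with 334.8 CPM at 5 months, 336.3 and 709.2 CPM at 24 months and 377.8 CPM at 30 months.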

How the data were processed

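Counts as deposited by the authors are whole reads for each of 32105 Ensembl genes in 4 libraries of skin RNA, made with an Illumina mRNA multiplex kit, per the labels' protocols. CASAVA 1.7, STAR 2.4.1d, featureCounts 1.4.6-p4 and build GRCz10 stand as tools and genome in the submitters' processing notes. Neither the annotation release nor a strand setting is given in the sources used here. The values of a second table, which the authors deposited under the name RPKM, were taken as a score: its library totals cycle with the row number; dividing these out gave the exon length per gene used for CPM per kilobase.

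The members and lists were chosen with earlier results of these data known. Symbols came from a gene name table (26269 genes). The rule names the 10 lgals genes with the highest mean CPM, the 3 nearest profiles of the 3 most abundant galectins, and from each list its most abundant member and up to 3 with the smallest p for 24 against 5 months; lgals9l1's neighbours, grna.1 and genes around lgals4 were added after their values were seen. Tests used edgeR 4.0.16 in R 4.3.3 (TMM, filterByExpr, glmQLFit with default settings, glmQLFTest, Benjamini-Hochberg) on 21535 genes. Group means leave 1 residual degree of freedom, from the 24-month pair, and this assumes that single libraries vary as that pair does. The prior degrees of freedom of this fit were infinite. Its p-values therefore use only the spread shared over genes, and a gene's own gap within the pair does not widen its spread. Age as a line leaves 2 and is given per 10 months. For 30 against 5 months there is no test. DESeq2 1.42.0, limma-voom (limma 3.58.1), other scalings, filters and left-out libraries were alternatives. The scripts were tested on simulated counts with a set spread and large changes, which checks the code and not how well these libraries resolve changes.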

Additional observations from a re-analysis of the deposited data

How the results depend on the processing

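Calls over all genes rested on the setting. For 24 against 5 months the 27 calls became 0 with library totals alone, 0 with the other dispersion setting of glmQLFit, 0 with a filter at a mean of 5 CPM, 3 with limma-voom and 34 without the 30-month library. For 30 against 24 months the 147 calls became 2, 1, 1 and 7 under the same first settings, 66 with DESeq2 and 116 without the 5-month library. The slope, with 0 calls, gave 27 with DESeq2 and 0 to 372 when libraries were left out in turn. The cause was not tested. Of the galectin-family genes other than lgals4 that were tested under each of these settings, 0 were called. Their number was 14 in the main setting and changed with the filter.

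The log2 difference of lgals4 between 30 and 5 months was −7.8 with library totals alone, −7.49 with RLE scaling, −7.55 with a prior count of 0.5 and −6.87 in the second table.

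Signs of other members turned when a library was left out, and values are ranges over the left-out libraries. In the comparisons of ages this was a 24-month replicate. For 24 against 5 months these were −0.15 to 0.18 (lgals3b), −0.23 to 0.78 (lgals3a), −0.96 to 0.77 (lgals3bp.3), −2.3 to 0.87 (lgals2a), −0.54 to 0.63 (lgals3bp.1), −3.52 to 5.08 (lgals9l1) and −1.12 to 1.38 (lgals9l3). For 30 against 24 months they were −0.25 to 0.09 (lgals3b), −0.36 to 2.81 (lgals2a), −4.76 to 3.84 (lgals9l1), −1.71 to 0.79 (lgals9l3) and −0.66 to 0.33 (LGALS8). For the slope, where lgals3bp.3 and lgals3bp.1 turned only without the 30-month library and LGALS8 only without the 5-month library, they were −0.16 to 0.04 (lgals3b), −1.22 to 0.21 (lgals3a), −1.94 to 0.1 (lgals3bp.3), −2.0 to 0.12 (lgals3bp.1), −2.6 to 0.52 (LGALSL), −6.43 to 2.25 (lgals9l1), −1.61 to 0.37 (lgals9l3) and −0.43 to 0.45 (LGALS8). Other settings turned signs near 0. For 24 against 5 months these were lgals3b at −0.22 (library totals) and −0.03 (5 CPM filter), lgals3bp.3 at −0.2 (totals) and −0.15 (limma-voom), and lgals2a at −0.02 (totals) and −0.48 (limma-voom). For the slope, RLE and DESeq2 each gave 0.01 for lgals3b and lgals3a, while totals and limma-voom each gave −0.04 for LGALSL and −0.01 and 0.0 for lgals9l3.

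No paired analysis was possible, since the labels link no libraries of different ages. They give no replicate numbers either, so the numbers of the 24-month replicates were assigned here. Leaving out a 24-month replicate leaves the group means without residual degrees of freedom, so those are values with no test.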

Other observations

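A galectin-like gene whose symbol falls outside the lgals prefix, igldcp, had 10.8 CPM at 5 months, 20.8 and 29.4 CPM at 24 months and 12.9 CPM at 30 months. Counts of the lens galectin relative GRIFIN were 0, 2, 0 and 4 in these libraries. Among the 11 genes at least 16-fold lower at 30 months than in the lowest other library, the one with a larger difference from that lowest library than lgals4 was wu:fk65c09, with 227.6 CPM at 5 months, 396.4 and 1887 CPM at 24 months and 0.945 CPM at 30 months (log2 difference −7.75, from the 5-month library). The others include HAL, the enzyme that breaks down histidine, with 10.8, 7.34, 9.21 and 0.105 CPM in the same order, and SAMHD1, a nucleotide triphosphatase, with 62.0 CPM at 5 months, 50.1 and 268.1 CPM at 24 months and 2.78 CPM at 30 months.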
